A study of Mus musculus with 8 samples.

Results

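Clu, Anxa1, Anxa10, Ly6a, Ly6d, Sprr1a, Sprr2f, F3 and Il1rn are 9 genes associated with the fetal or regenerating gut epithelium. They were followed in mouse small intestinal organoids, with sorted intestinal tissue and spatial sections as reference. The genes were picked by symbol, 9 of the 32285 genes in the organoid files, and all 9 symbols were found, each in 1 row. Their levels, spread over cells and co-detection in the organoids were known when they were picked, so these are a description and carry no test.

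The fetal gut is lined by an epithelium that has not yet built crypts, and its genes come back in the adult gut after injury, in a short-lived state that precedes regrowth of the crypt. YAP and TEAD, a coactivator and its DNA-binding partners that respond to cell shape and stretch, are known to switch on many of these genes. Clu encodes clusterin, a secreted chaperone that marks the rare revival stem cell of the injured crypt. Ly6a encodes Sca-1, a GPI-anchored surface protein used to sort fetal-like epithelium, and Ly6d encodes a related surface protein. Anxa1 and Anxa10 encode annexins, which bind membrane phospholipids. Sprr1a and Sprr2f encode small proline-rich proteins, cross-linked components of the cornified envelope in squamous epithelia that are also made by the stressed gut. F3 encodes tissue factor, the membrane protein that starts blood coagulation, and Il1rn encodes the secreted antagonist of the interleukin 1 receptor.

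The organoids came from C57BL/6 small intestine at passage 1, where an organoid is a miniature epithelium grown in culture from intestinal crypt cells. There was 1 library from organoids grown alone (labelled CTRL, the control) and 1 from cocultured organoids. The labels do not name the coculture partner, and the study's title concerns lymphatics and intestinal stem cells. For each culture 16 wells were pooled before 100000 epithelial cells were sorted, so wells cannot be told apart, and the mice behind a pool are not given in the sources used here. The tissue reference was 1 sorted library each of small and large intestine, from C57BL/6 mice and from Lgr5-eGFP-ires-CreERT2 mice on the same background, in which the stem cell gene Lgr5 drives GFP and a tamoxifen-dependent Cre. Living cells were sorted with enrichment of Lgr5+ stem cells and CD31+ PDPN+ LYVE1+ lymphatic endothelial cells, so class shares describe the sort. The spatial reference was 4 Visium libraries on 10 µm cryosections, 2 sections each of small and large intestine, named as technical duplicates. The age of the animals is not given in the sources used here.

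Every value is a count of unique molecular identifiers (UMIs, 1 per captured RNA molecule), given as CPM, scaled to 1000000 UMIs of the same cells, with an exact Poisson 95% interval. After filtering there were 538 control cells with a median of 73663.5 UMIs and 1028 cocultured cells with a median of 86295. Epcam, the pan-epithelial surface protein, was present in 96.8% (control) and 97.7% (coculture) of cells. The 8 fibroblast markers summed to 2 and 3 UMIs in the control and cocultured libraries, with 7 and 6 of them at 0. The 7 lymphatic endothelial markers summed to 84 and 343 UMIs (1.94 and 3.54 CPM), with 4 of 7 at 0 in both. Some marker lists of gut epithelial types differed between the libraries as well. From control to coculture the enteroendocrine list went from 136 to 682 CPM and the deep crypt secretory list from 50.9 to 153. The enterocyte list went from 11483 to 16142, the Paneth list from 6355 to 7664 and the stem list from 851 to 528. The goblet list (2463 and 2431 CPM) and the cycling list (2740 and 2796 CPM) were nearly alike. The mesothelial list, which holds Msln, went from 22.9 to 5.15 CPM. The part of these differences in the levels of the 9 genes was not tested. No barcode occurred in both organoid libraries, and 25 occurred in both tissue libraries. With 1 library per condition no difference has a replicate check, the intervals cover counting error only, and culture, library and pool cannot be told apart.

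All 9 genes were at least 2-fold lower in the cocultured organoids than in the control. Of 10781 genes that reached 100 UMIs in the library where they were higher, 2.53% were at least 2-fold lower and 1.22% at least 2-fold higher. The members were picked with this contrast known, so nothing is read from their count. Their summed level was 879 CPM in the control and 153 CPM in coculture, 5.76-fold lower, a log2 ratio of -2.53 (interval -2.55 to -2.50). Without Clu it was 5.08-fold lower. The median log2 ratio was -2.66 over the 9 genes and -0.08 over the 10781 genes.

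The genes differed in how much lower they were. Clu, the revival stem cell gene, had 4597 UMIs in the control and 56 in coculture, 106 CPM (103 to 109) against 0.578 CPM (0.436 to 0.750). That is 184-fold lower (log2 ratio -7.52), at place 4 from the lowest ratio among the 10781 genes, and as a mean over cells of each cell's CPM the log2 ratio was -8.50. Anxa1 stood at 70.5 and 2.43 CPM, 29.0-fold lower. F3, tissue factor, stood at 132 and 10.3 CPM, 12.9-fold lower (log2 ratio -3.69, interval -3.78 to -3.59), with a log2 ratio of -2.92 without its 10 richest cells in each library.

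Anxa10, Il1rn and Ly6d lay in the middle of the range. Anxa10 was at 96.6 CPM in the control and 14.1 CPM in coculture, 6.87-fold lower. Il1rn, the interleukin 1 antagonist, was at 49.7 and 7.88 CPM, 6.30-fold lower. Ly6d was at 138 and 27.2 CPM, 5.05-fold lower (log2 ratio -2.34), and at a log2 ratio of -4.43 without its 10 richest cells in each library.

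The cornified-envelope genes and Ly6a had the ratios closest to 1 over all kept cells, an order that does not hold for Sprr2f under every setting. Sprr2f was at 78.1 CPM in the control and 22.8 CPM in coculture, 3.43-fold lower (log2 ratio -1.78, interval -1.86 to -1.70). Sprr1a was at 118 and 35.8 CPM, 3.29-fold lower (log2 ratio -1.72, interval -1.78 to -1.66). The intervals of these Sprr genes overlap, so their ratios are not ordered. With a stricter cell filter (a minimum of 1000 genes, mitochondrial share up to 10%) Sprr2f had a log2 ratio of -2.53, beyond the -2.29 of Ly6d, and without its 10 richest cells in each library it had -2.40. Ly6a was at 89.8 and 31.5 CPM, 2.85-fold lower (log2 ratio -1.51, interval -1.58 to -1.44).

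**Figure D1:**
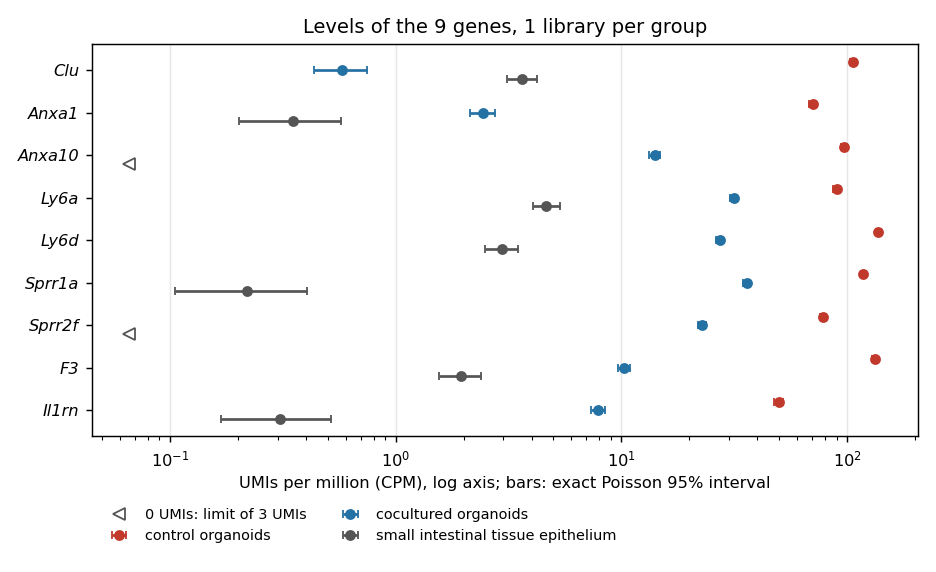
Level of each of the 9 genes in CPM (log axis) in control organoids (red), cocultured organoids (blue) and small intestinal tissue epithelium (grey), 1 library each, with exact Poisson 95% intervals and open triangles for the limit that 0 UMIs allows (3 UMIs). All 9 control points lie between 49.7 and 138 CPM and above the other points, and Clu alone is lower in cocultured organoids than in the tissue epithelium.

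Positions are those of GRCm38, the assembly also called mm10. Sprr2f (chr3:92365187-92366442) and Sprr1a (chr3:92483954-92485881) lie 117.512 kb apart in the cluster of Sprr genes, with 5 protein-coding genes between them, all named Sprr and none with 100 control UMIs. Ly6d (chr15:74762056-74763567) and Ly6a (chr15:74994877-74998031) lie 231.31 kb apart with 9 protein-coding genes between, of which Gml, Gml2, Ly6m and Ly6e had at least 100 control UMIs. F3 (chr3:121723537-121735052), Clu (chr14:65968483-65981548), Anxa1 (chr19:20373434-20390671), Anxa10 (chr8:62057042-62123193) and Il1rn (chr2:24336860-24351491) lie apart from the others.

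Promoter sequence from RefSeq (GRCm38.p6) was held for 6 of the 9 genes, and Clu, Ly6a and Ly6d were not among them. The AP-1 motif TGANTCA, bound by the stress-responsive Jun and Fos proteins, was present in the 250 bases before the start of 5 of these 6 genes. On the same length it was present for 7.82% of 27025 genes. The letters read the same on both strands. The TEAD motif GGAATG, searched on both strands, was present for Anxa1 and Il1rn, 2 of 6, against 14.4% of genes. The TATA box TATAAA was present on either strand for Anxa1, Anxa10, Sprr1a and Sprr2f, 4 of 6, against 14.3%. A match is a description of the letters and not of binding. The 5 promoters that hold the AP-1 letters are shown 5′ to 3′ on the strand of the gene, up to the base before its start, with AP-1 and TATA matches in capitals. The last 150 bases are given where they hold the matches, and 250 bases for Sprr2f.
Anxa10 (chr8:62123194-62123343, minus strand): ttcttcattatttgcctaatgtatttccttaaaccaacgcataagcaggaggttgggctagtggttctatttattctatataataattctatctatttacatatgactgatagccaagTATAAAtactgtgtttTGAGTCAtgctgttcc
Sprr1a (chr3:92485882-92486031, minus strand): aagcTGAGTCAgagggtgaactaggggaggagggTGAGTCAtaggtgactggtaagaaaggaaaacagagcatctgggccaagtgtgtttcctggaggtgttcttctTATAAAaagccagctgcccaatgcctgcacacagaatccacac
Sprr2f (chr3:92364937-92365186, plus strand): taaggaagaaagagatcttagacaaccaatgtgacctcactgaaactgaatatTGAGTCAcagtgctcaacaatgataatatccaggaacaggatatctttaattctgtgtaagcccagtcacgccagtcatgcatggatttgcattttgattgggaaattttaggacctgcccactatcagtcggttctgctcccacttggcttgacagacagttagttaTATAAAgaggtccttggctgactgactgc
F3 (chr3:121723387-121723536, plus strand): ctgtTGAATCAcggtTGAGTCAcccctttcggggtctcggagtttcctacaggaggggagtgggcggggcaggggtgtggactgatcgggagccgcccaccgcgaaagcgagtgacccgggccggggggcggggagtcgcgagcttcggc
Il1rn (chr2:24336710-24336859, plus strand): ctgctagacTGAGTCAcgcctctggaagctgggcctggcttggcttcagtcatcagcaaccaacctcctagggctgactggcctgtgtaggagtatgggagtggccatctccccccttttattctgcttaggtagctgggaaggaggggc

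In Anxa10 the AP-1 letters began 16 bases before the start, just past a TATAAA at 32 bases, and there was a further match at 180 bases outside the stretch shown. Sprr1a held them at 146 and 116 bases before the start, and F3 held the variants TGAATCA and TGAGTCA at 146 and 135 bases. In Sprr2f the match lay at 197 bases, and in Il1rn at 141 bases, in the first of 3 windows listed for that gene. Anxa1 held no AP-1 letters in its window, which says nothing on the factor.

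The UMIs of each gene were concentrated in a small number of control cells. Among the 538 control cells, 3 held 50% of the Sprr2f UMIs, 4 those of Clu and of Sprr1a, 8 those of Ly6d and of F3, 9 those of Anxa1, 11 those of Ly6a, 13 those of Il1rn and 15 those of Anxa10. The single richest control cell for Clu held 1248 UMIs, 27.1% of all Clu UMIs in the library. That for Sprr1a held 869 UMIs of its gene, that for Ly6d 770, that for Sprr2f 720 and that for Anxa10 627. Il1rn was more even, with at most 137 UMIs in a cell. At least 100 UMIs of the gene were found in 20 control cells for Ly6d, 16 for F3, 12 for Ly6a, 10 for Anxa1, 9 for Sprr1a, 8 each for Clu, Anxa10 and Sprr2f, and 3 for Il1rn. These cells held 90.6% of the Sprr2f UMIs and 18.3% of the Il1rn UMIs.

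In coculture cells this rich were absent for some genes and present for others. No cocultured cell reached 100 UMIs of Clu, Anxa1 or Il1rn, whose highest cells held 15, 34 and 99 UMIs. Anxa10 and F3 had 1 such cell each. Ly6a had 8 such cells, Ly6d and Sprr1a 7 each, and Sprr2f 4. The richest cocultured cells for the cornified-envelope genes held more UMIs than any control cell, 1034 for Sprr1a and 837 for Sprr2f. For F3 the UMIs were spread wider in coculture, with 26 cells holding 50% of them. Without the 10 cells richest in the gene in each library, an alternative added after seeing the data, the log2 ratio of coculture over control was -4.43 for Ly6d, -2.92 for F3 and -2.40 for Sprr2f.

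Fewer cells carried each gene in coculture once all cells had been randomly thinned to a depth of 10000 UMIs, which left 450 control and 919 cocultured cells. The share of cells with Anxa10 was 22.2% in the control (exact binomial 95% interval 18.5 to 26.4) and 6.20% in coculture (4.73 to 7.96). Anxa1 was seen in 13.8% and 1.63%, Il1rn in 16.2% and 4.24%, and Ly6d in 14.4% and 3.48%. Ly6a was seen in 16.9% and 9.14%, F3 in 16.0% and 8.27%, Sprr1a in 11.3% and 5.01%, and Sprr2f in 5.56% and 1.74%. Without thinning, 37.4% of control cells and 26.8% of cells from coculture had F3, and 33.8% and 23.8% had Ly6a.

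Paneth-like cells, the antimicrobial cells of the crypt base, were taken as a reference for scattered UMIs, though no value here shows that they lack the genes. In the control (27 thinned cells, median 100819 UMIs before thinning) the 9 genes were seen in 0% to 7.41% of them, each below the share over all control cells. In coculture (55 thinned cells, median 78644 UMIs) F3 was seen in 5 (9.09%, interval 3.02 to 20.0) and Anxa10 in 4 (7.27%, interval 2.02 to 17.6) Paneth-like cells. Over all cocultured cells the shares of 8.27% and 6.20% lie within these intervals. The other 7 genes were seen in 0% to 1.82% of the cocultured Paneth-like cells.

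The same control cells tended to carry several of the genes. After thinning, 183 of 450 control cells (40.7%) carried at least 1 of the 9 genes, 107 (23.8%) at least 2 and 85 (18.9%, interval 15.4 to 22.8) at least 3, and 2 cells carried all 9. Of 919 cocultured cells, 213 (23.2%) carried at least 1, 78 (8.49%) at least 2 and 42 (4.57%, interval 3.31 to 6.13) at least 3, and 4 cells carried 6, the highest number. A limit of 3 genes is a cut on a score with cells near it: 22 control and 36 cocultured cells carried exactly 2, and 16 and 23 carried exactly 3. Without thinning, 36.2% of control and 13.3% of cocultured cells carried at least 3.

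**Figure D2:**
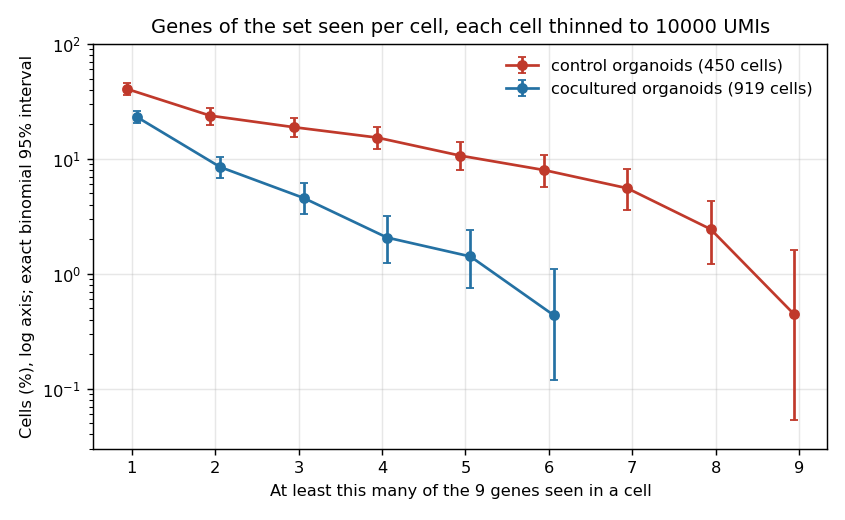
Share of cells (%, log axis) in which at least the given number of the 9 genes was seen, for 450 control (red) and 919 cocultured (blue) organoid cells thinned to 10000 UMIs, with exact binomial 95% intervals. The control lies above coculture at every number, with 18.9% against 4.57% of cells at 3 or more, and the blue line ends at 6 genes.

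Pair by pair, co-detection exceeded what the shares of the single genes give. The genes were picked with this pattern known, and other gene pairs were not counted, so nothing is read from the number of pairs. For 36 of 36 pairs in the control, more thinned cells carried both genes than the product of the shares gives, by a median of 3.61 times (2.61 to 5.29). Pearson's r of log2(1 + UMI) over the 450 cells, which share 1 library and are not replicates, ranged from 0.17 to 0.74 with a median of 0.45. Anxa1 and Anxa10 were the closest pair at r = 0.744. They were seen together in 53 cells where the product gives 13.8, and 85.5% of the cells with Anxa1 had Anxa10. Anxa10 and Il1rn followed at r = 0.727, with 61 cells against 16.2, and then Anxa1 and F3 at 0.704, with 44 cells against 9.92.

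The weakest pairs in the control joined Sprr2f to Ly6a (r = 0.170, 11 cells against 4.22) and to Clu (0.223). Clu with Sprr1a was at 0.291. In coculture 19 pairs had a product of at least 1 cell, and all 19 exceeded it, by a median of 4.03 times (1.37 to 8.57). With doublets kept, 18 of 19 did. The closest cocultured pairs were Anxa10 with Il1rn (r = 0.507) and Anxa10 with Sprr1a (0.498, 24 cells against 2.85). Clu was left in 4 thinned cocultured cells, too few to pair.

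**Figure D3:**
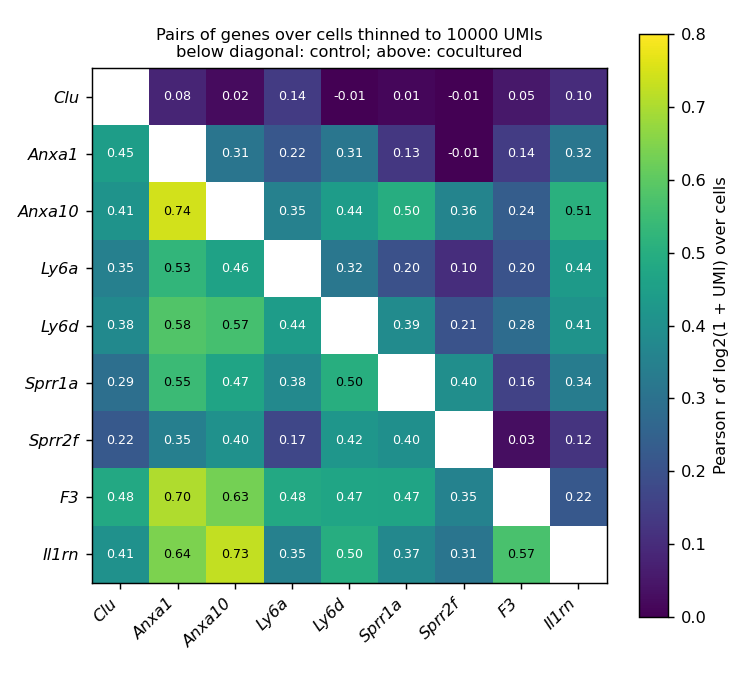
Pearson's r of log2(1 + UMI) for each pair of the 9 genes over cells thinned to 10000 UMIs, with 450 control cells below the diagonal and 919 cocultured cells above it. Values reach 0.74 for Anxa1 with Anxa10 in the control, and in coculture Clu was seen in 4 cells, too few for its values there to be read.

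The genes whose pattern over the 450 control cells was most like the number of these genes seen were searched among 9010 genes seen in at least 5% of those cells. The 5 closest were Anxa3 (r = 0.815), Capg (0.783), Krt23 (0.765), S100a11 (0.764) and Cldn4 (0.752). Anxa3 is a further annexin, Capg caps actin filaments, Krt23 is a keratin and Cldn4 a tight junction claudin. Over the 919 cocultured cells the same genes were at 0.608, 0.317, 0.503, 0.519 and 0.619. In coculture Cldn4 and Anxa3 were the closest of the 5.

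Single genes had neighbours of their own. Clu was closest to Cwh43 (r = 0.656), Krt23 (0.544), Vill (0.540), Plat (0.511) and Nbl1 (0.491), none of them a member. With Clu left in 4 thinned cocultured cells, its neighbours there are not given. F3 was closest to Anxa1 (0.704) and then to Plaur, the urokinase receptor (0.672). Il1rn was closest to Anxa10 (0.727), Anxa3 (0.672), Krt23 (0.665), Areg, which encodes the growth factor amphiregulin (0.655), and Cldn4 (0.647). Sprr2f was closest to Ly6d at only 0.420.

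Cells that carried at least 3 of the 9 genes were epithelial and expressed few stem or division genes. Epcam was seen in 85 of 85 such control cells, the endothelial gene Pecam1 in 0 (which allows a share of up to 3.53%) and the leukocyte gene Ptprc in 1. The summed level of Epcam, Krt8, Krt18 and Cdh1 had a median over cells of 17900 CPM, against 4600 CPM in control cells with none of the 9 genes. Mki67, a marker of dividing cells, was seen in 10.6% (interval 4.96 to 19.2) of the control cells with at least 3 genes and 52.4% (46.3 to 58.6) of those with none. Olfm4, a crypt stem cell gene, was seen in 5.88% and 28.8%. In coculture Mki67 was seen in 21.4% and 42.5%, and Olfm4 in 2.38% and 17.8%. The stem cell gene Lgr5 showed no such gap. It was seen in 3.53% (interval 0.734 to 9.97) and 5.99% (3.46 to 9.55) in the control and in 2.38% and 0.992% in coculture.

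Lists of stem and cell cycle genes were lower in cells with more of the genes seen. The median over control cells of 10 adult stem cell genes was 800 CPM with none of the 9 genes seen, 650 CPM with 1 or 2 and 100 CPM with at least 3. In coculture these medians were 500, 400 and 150 CPM. For 10 genes of the cell cycle the medians were 2300, 600 and 300 CPM in the control and 1850, 1100 and 300 CPM in coculture. For 15 YAP-TEAD target genes they were 200, 300 and 2300 CPM in the control and 200, 400 and 2000 CPM in coculture, but this list followed 1 gene. The medians of Areg alone were 0, 100 and 2000 CPM in the control and 0, 100 and 1800 CPM in coculture. Those of the other 14 genes were 100 CPM in all 3 control classes and 100, 100 and 50 CPM in coculture. The enterocyte list had medians of 1800, 2650 and 2600 CPM in the control and 3900, 5200 and 6350 CPM in coculture. Pooled, it was at 14038, 17406 and 7868 CPM in the control and 18589, 17825 and 18431 CPM in coculture. Medians of the goblet list were 100 CPM in all 3 control classes, and those of the squamous and gastric lists were 0. Pooled goblet levels were 2648, 3253 and 4887 CPM in the control and 3097, 5843 and 1155 CPM in coculture. The control classes had median depths of 90021, 73276.5 and 71171 UMIs before thinning, and the part of depth in these differences was not tested.

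The cells were also clustered with both libraries together, leaving out the 9 genes and every listed gene, so that cluster membership did not use them. The cluster with the highest summed level of the 9 genes is described here. Its leading genes were Ly6d, Dynap, Sprr1a, Sprr2f and Ly6m, and it carried no class name by the markers. It took 80 of 538 control cells (14.9%) and 37 of 1028 cocultured cells (3.60%). In the control it held 90.7% of the UMIs of the 9 genes with 14.0% of the library's UMIs, and in coculture 65.1% with 3.01%. Its cells had median depths of 69672 and 79354 UMIs, near the 74661.5 and 86576 of the other cells. At least 3 of the genes were seen in 63 of 77 thinned control cells of the cluster (81.8%) and 23 of 37 cocultured cells (62.2%).

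Inside the cluster the genes differed in whether they were lower in coculture. Clu was at 665 CPM in the 80 control cells and 4.45 CPM in the 37 cocultured cells (log2 ratio -7.22), and it was seen in 42 of 80 and 3 of 37 cells. Anxa1 was at 461 and 40.0 CPM (-3.53), and F3 at 890 and 131 CPM (-2.76). Anxa10 was at 618 and 244 CPM (-1.34), Il1rn at 323 and 182 CPM (-0.82) and Ly6a at 495 and 336 CPM (-0.56). For these 6 genes the pooled level within the cluster was lower in coculture, as was the share of cells in it. For Ly6a 1 cell held 31.7% of the cocultured UMIs there, and without the richest cell of each library it was at 450 and 240 CPM.

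The other 3 genes had about the same pooled level inside the cluster in both libraries. Ly6d was at 922 CPM in control and 828 CPM in cocultured cells (log2 ratio -0.16, interval -0.22 to -0.09). Sprr1a was at 796 and 944 CPM (0.25, interval 0.18 to 0.31), and Sprr2f at 539 and 585 CPM (0.12, interval 0.03 to 0.20). The cocultured values rest on few cells, since 1 cell held 49.0% of the Sprr2f UMIs, 1 held 37.5% of those of Sprr1a and 1 held 21.8% of those of Ly6d there. Without the richest cell of each library, Sprr2f was at 424 and 310 CPM, Sprr1a at 662 and 603 CPM and Ly6d at 810 and 672 CPM, so that Sprr2f and Sprr1a were no longer higher in coculture. Ly6d was present in 63 of 80 control cells and 15 of 37 from coculture, with a median over cells of 134 and 0 CPM. Within the cluster, 25 of 80 control cells and 8 of 37 from coculture had Sprr2f, and 57 of 80 and 26 of 37 had Sprr1a.

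Pooled over all cells outside the cluster, the levels were low in both libraries, though single clusters among them were not. Ly6a stood at 24.0 and 22.0 CPM in control and coculture (log2 ratio -0.13), and Sprr1a at 7.87 and 7.60 CPM (-0.05). Clu was at 15.5 and 0.457 CPM (-5.08), so that it was lower in coculture there too, as were Anxa1 at 7.06 and 1.27 CPM (-2.48), Ly6d at 10.1 and 2.33 CPM (-2.12) and Il1rn at 5.29 and 2.46 CPM (-1.11). Anxa10 stood at 11.98 and 6.92 CPM (-0.79), and F3 at 9.43 and 6.53 CPM (-0.53). Sprr2f was at 3.28 and 5.29 CPM outside the cluster (0.69), but 1 cell held 36.8% of the cocultured UMIs. Without the richest cell of each library it was at 2.47 and 3.34 CPM, and it was present in 12.2% of control and 5.55% of cocultured cells there. In enterocyte-like cells, the absorptive cells, it stood at 2.56 CPM in the control and 56.4 CPM in coculture, with 45.3% of the cocultured UMIs in 1 cell.

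**Figure D4:**
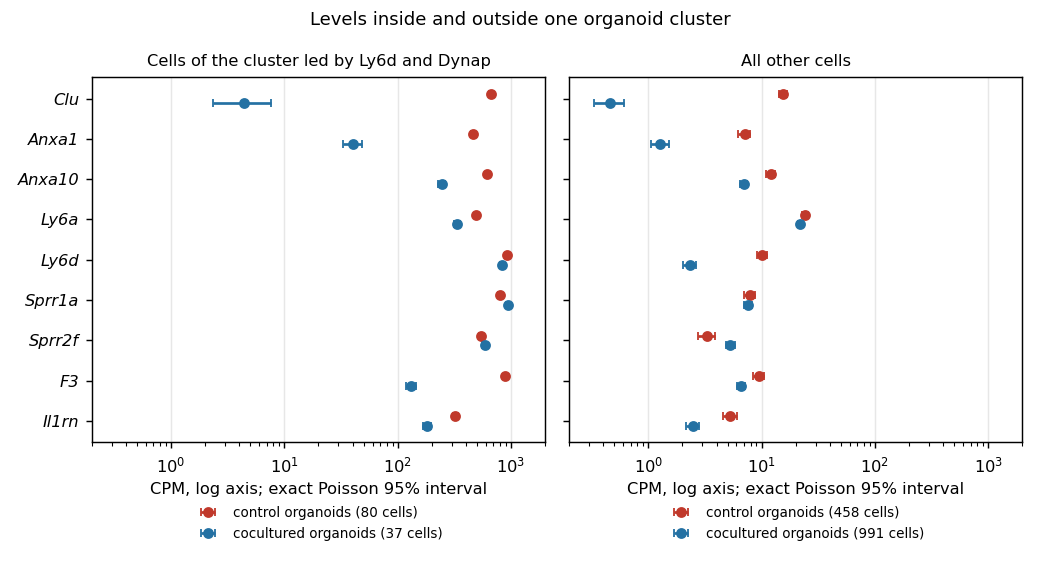
Level of each gene in CPM (log axis, exact Poisson 95% intervals) in the cells of the cluster led by Ly6d and Dynap (left, 80 control and 37 cocultured cells) and in all other cells (right, 458 and 991 cells). On the left the pooled levels of Ly6d, Sprr1a and Sprr2f nearly coincide between the libraries while Clu, Anxa1 and F3 do not, and on the right the highest level is 24.0 CPM.

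Clusters of low depth carried the genes as well. A cluster led by Gm26917 and Rmrp (26 control and 27 cocultured cells, median 10937.5 and 7745 UMIs) summed to 2003 and 396 CPM over the 9 genes, with Clu at 910 CPM in the control, seen in 8 of 26 cells. A cluster led by Gm26917 and Lars2 (64 and 81 cells, median 1292.5 and 1920 UMIs) summed to 2309 and 679 CPM. Paneth-like cells summed to 33.6 and 37.4 CPM. The part of cell quality in the low-depth clusters was not tested.

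Related gene lists were chosen with results of these data known, and their counts stand beside the 2.53% of all 10781 genes that were at least 2-fold lower and the 1.22% that were at least 2-fold higher. Of 20 related fetal and regenerative epithelial genes, 16 had enough UMIs and 11 of those were at least 2-fold lower, none higher, with a median log2 ratio of -1.29. Among the most abundant were S100a6, a calcium-binding protein, at 1880 and 669 CPM (log2 ratio -1.49), the claudin Cldn4 at 292 and 67.7 CPM (-2.11), and the keratin Krt19 at 2663 and 2017 CPM (-0.40). Of 15 YAP-TEAD target genes, 10 had enough UMIs and 7 were lower, none higher, with a median of -1.19. Ccn2, a matricellular protein, had 312 and 33 UMIs (-4.40), Areg was at 532 and 250 CPM (-1.09), and Birc5, also a gene of cell division, was at 137 and 167 CPM (0.29).

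The annexin, Ly6 and Sprr families are counted with the members they hold, which were picked as lower, and then without them. Of 12 annexin genes 10 had enough UMIs and 5 were at least 2-fold lower, or 3 of 8 without Anxa1 and Anxa10: Anxa3 was at 112 and 29.6 CPM (log2 ratio -1.92) and Anxa5 at 109 and 36.8 CPM (-1.57). Anxa11 was at 85.5 and 85.8 CPM, and Anxa13, an intestinal annexin, at 112 and 126 CPM (0.17). Of 10 Ly6 genes 4 had enough UMIs and 3 were lower, or 1 of 2 without Ly6a and Ly6d, with Ly6m at 53.9 and 7.11 CPM (-2.92). Ly6e was at 103 and 84.6 CPM (-0.29). Of 15 Sprr genes 6 had enough UMIs and all 6 were lower, or 4 of 4 without Sprr1a and Sprr2f, with Sprr2a3 at 599 and 256 CPM (-1.22); genes of the Sprr2 group are near-identical copies whose reads the counting could split, so their values, that of Sprr2f included, are uncertain.

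The pathways of F3 and Il1rn are counted in the same way. Of 12 genes of the tissue factor and plasminogen system 6 had enough UMIs and 3 were at least 2-fold lower, or 2 of 5 without F3, with Plaur at 38.6 and 12.1 CPM (log2 ratio -1.67) and Plat, tissue plasminogen activator, at 24.9 and 6.72 CPM (-1.89). Of 12 interleukin 1 pathway genes 7 had enough UMIs, 2 were lower and 1 higher, with a median of -0.25. Without Il1rn 1 of 6 was lower and 1 higher. Il18, an epithelial cytokine of the family, was the higher one at 30.9 and 74.0 CPM (1.26), and the signalling genes Irak1, Irak4 and Myd88 lay between -0.25 and 0.10. Of 10 adult stem cell genes 9 had enough UMIs and 2 were lower, Olfm4 at 156 and 68.7 CPM (-1.19) and Lgr5 with 279 and 137 UMIs (-2.19). Squamous and gastric epithelial genes were scarce, with 2 of 11 and 1 of 10 having enough UMIs.

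In the sorted small intestinal tissue library the 9 genes were low or absent in the epithelium. Epithelial cells there were those of clusters with Epcam in at least 50% of cells, without clusters named as a non-epithelial class, a rule set after seeing the data. It left 1563 cells, of which 97.2% had Epcam. Anxa10 and Sprr2f had 0 UMIs in them, which allows up to 0.0662 CPM each. Ly6a was at 4.66 CPM, Ly6d at 2.96 CPM, F3 at 1.94 CPM, Anxa1 at 0.353 CPM, Il1rn at 0.309 CPM and Sprr1a at 0.221 CPM. Clu was at 3.64 CPM, with 119 of its 165 UMIs in 1 cell of 4777 UMIs that carried no other member.

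Control organoids stood above this epithelium for all 9 genes, side by side in different preparations. Sprr1a was 535-fold, Anxa1 200-fold, Il1rn 161-fold, F3 68.2-fold, Ly6d 46.5-fold, Clu 29.2-fold and Ly6a 19.3-fold higher in the control organoids. With their 0 tissue UMIs counted as 3, Anxa10 was 1459-fold higher (log2 ratio 10.5, lower limit 10.2) and Sprr2f 1180-fold higher (log2 ratio 10.2, lower limit 9.91). Of the 11206 genes compared, 11.7% were at least 2-fold higher in the organoids. Culture and library cannot be told apart in this comparison. Of 1282 epithelial cells thinned to 10000 UMIs, 118 (9.20%) carried at least 1 of the genes, 3 carried 2 and 0 carried 3, which allows a share of up to 0.234%. The Sprr1a ratio rested on 10 UMIs in the sorted tissue cells. In the small intestinal Visium region led by Slc28a2, Ada and Apoa4, genes of mature absorptive cells, levels were higher than in these sorted cells. Sprr1a was at 57.9 and 116 CPM there and Ly6d at 48.0 and 64.3 CPM, so the ratios hold for the sorted library only.

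The large intestinal epithelium (4392 cells) was high for some of the genes and not for the others. Ly6a stood at 350 CPM there, above the 89.8 CPM of the control organoids (log2 ratio of control organoids over large intestine -1.96), and Anxa1 at 52.7 CPM, near the 70.5 CPM of the control organoids. F3 was at 10.5 CPM, Il1rn at 5.74 CPM, Sprr1a at 1.98 CPM, Clu at 1.21 CPM and Ly6d at 1.08 CPM, and Anxa10 and Sprr2f again had 0 UMIs. Of 3579 cells thinned to 10000 UMIs, 192 (5.36%) carried at least 3 of the genes and 1 carried 5. Anxa10 and Sprr2f were thus seen in organoid epithelium and in no epithelial cell of either tissue library.

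By cell class, Clu, Ly6a, Ly6d, F3 and Anxa1 had their highest levels outside the epithelium, as set by the rule above, in both tissue libraries. Some clusters met the Epcam part of that rule and were left out by name only. These were plasma-like and dendritic-like in small intestine, and plasma-like and smooth muscle or pericyte-like in large intestine. The highest large intestinal class of Anxa1, smooth muscle or pericyte-like, is among them. The part of epithelial cells in these clusters was not tested. Clu was highest in blood endothelial-like cells, at 323 CPM (small intestine) and 284 CPM (large intestine), where it was seen in 26.7% and 33.3% of cells thinned to 2000 UMIs. Of B-like cells, 0 of 19 and 0 of 107 carried it at that depth. Small intestinal stem-like cells were at 40.7 CPM, of which 84.4% lay in 1 cell. Ly6a was highest in blood endothelial-like cells too, at 2216 and 4674 CPM, followed in small intestine by fibroblast-like cells at 795 CPM. In large intestine it was broad, at 60.2 to 815 CPM over the named epithelial classes other than tuft-like cells, with goblet-like cells at 815 and colonocyte-like cells at 811 CPM.

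Ly6d was highest outside the epithelium, next to genes of immune cells. It stood at 3823 CPM in a small intestinal cluster of 16 cells led by Siglech and at 1372 CPM in 282 cells led by Ighd and Fcer2a. Plasma-like cells, left out of the epithelium by name only, were at 1284 CPM. Large intestinal B-like cells were at 1794 CPM, and 86.9% of them carried it after thinning. F3 was highest in glia-like cells, at 197 and 377 CPM in small and large intestine (13 and 14 cells), and in the large intestine goblet-like cells stood at 66.6 CPM. Anxa1 was at 271 CPM in small intestinal fibroblast-like cells (168 CPM with doublets kept), and at 461 CPM in smooth muscle or pericyte-like, 312 CPM in tuft-like and 112 CPM in colonocyte-like cells of the large intestine.

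In small intestine Il1rn was highest in classes named as myeloid, at 28.7 CPM in macrophage or monocyte-like and 25.6 CPM in dendritic-like cells. Dendritic-like clusters there met the Epcam part of the rule for epithelium and were left out by name only. The part of epithelial cells in their value was not tested. In large intestine the highest named class of Il1rn was colonocyte-like cells at 21.4 CPM, but with a stricter cell filter they were at 4.92 CPM and tuft-like cells at 15.5 CPM. After thinning, 4.36% of colonocyte-like cells (interval 2.82 to 6.42, median 25810 UMIs before thinning) and 0.935% of B-like cells (0.0237 to 5.10, median 2644 UMIs) carried it, and the intervals overlap. Sprr1a was low throughout, with its highest levels in epithelial classes, at 10.0 CPM in goblet-like and 8.14 CPM in colonocyte-like cells of the large intestine and 4.68 CPM in goblet-like cells of the small intestine. The last value was 0.906 CPM with a stricter cell filter, 0.856 CPM with doublets kept and 1.35 CPM at a clustering resolution of 2. Anxa10 had 1 UMI in the small and 0 in the large intestinal library, and Sprr2f had 0 in both.

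**Figure D5:**
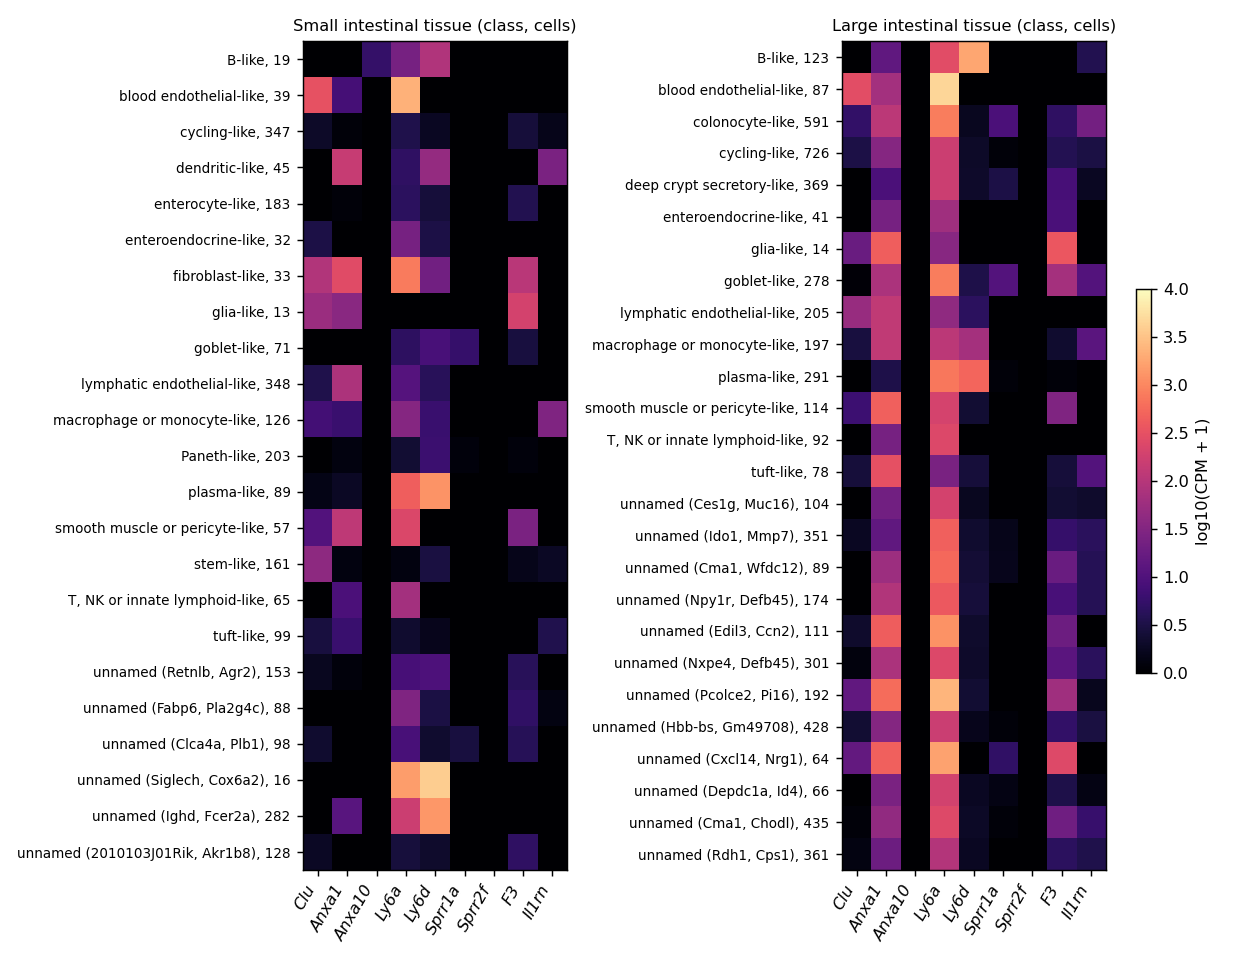
Level of the 9 genes (columns, log10(CPM + 1)) in cell classes of sorted small (left) and large (right) intestinal tissue, with the number of cells beside each class and the leading genes of clusters without a name. The columns of Anxa10 and Sprr2f are dark but for 1 UMI of Anxa10 in small intestinal B-like cells, that of Clu is bright in blood endothelial-like cells, and that of Ly6a is bright in most large intestinal classes.

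In the Visium sections each spot covers a patch of several cells, so fewer cells of a type and less RNA per cell cannot be told apart. Ly6a was at 123 and 133 CPM in the small intestinal sections and 1718 and 1757 CPM in the large. Anxa1 was at 16.8 and 19.8 against 156 and 162 CPM, and Il1rn at 3.70 and 5.05 against 52.4 and 50.5 CPM. These 3 genes were at least 2-fold higher in every large than in every small intestinal section, as were 10.3% of 13516 genes. Clu was lower in both large intestinal sections, at 23.0 and 37.8 against 16.9 and 14.1 CPM, as were Ly6d at 17.3 and 23.4 against 12.7 and 11.6 CPM and F3 at 43.0 and 61.6 against 35.8 and 35.98 CPM. None of these 3 reached a 2-fold gap between every pair of sections. No member was at least 2-fold higher in every small intestinal section, against 10.6% of genes.

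Regions of spots placed the genes differently. Sprr1a and Ly6d were highest in the small intestinal region led by Slc28a2, Ada and Apoa4, genes of mature absorptive cells, at 57.9 and 116 CPM for Sprr1a and 48.0 and 64.3 CPM for Ly6d in the first and second sections. F3 was highest in the region led by Cd59a and Actg2, with a gene of smooth muscle, at 136 and 183 CPM. Clu had its highest pooled level in the region led by Scd1 and Iglc genes, at 174 and 230 CPM, but 1 spot held 49.6% and 61.6% of those UMIs. After thinning to 2000 UMIs, 10.5% and 8.57% of its spots carried Clu, against 20.5% and 9.09% in the region led by Gal and Nmu and 11.5% and 17.3% in that led by Cd59a and Actg2. In large intestine Clu was highest in the region led by Mmrn1, Ccl21a and Lyve1, genes of lymphatic endothelium, at 130 and 76.9 CPM, with 26.3% and 10.3% of the UMIs in 1 spot. Ly6a ranged from 401 and 429 CPM in the large intestinal region led by Retnlb to 4705 and 4711 CPM in that led by Acta1. Il1rn was highest in that led by Cyp2c68, at 89.4 and 92.7 CPM. Anxa10 and Sprr2f had at most 1 UMI in any section.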

How the data were processed

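The deposited matrices hold UMI counts per gene and barcode for 8 libraries, not normalized. Per the file headers the authors made them with Cell Ranger 6.0.1 (single cells) and Space Ranger 1.2.1 (Visium), and per the submitters' processing notes the build was mm10. Filters or pooling beyond this are not given in the sources used here. Of 32285 gene IDs, 32158 were found in a table of mouse gene names, 9 of 9 members included.

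A cell was kept if it had 500 genes or more and a mitochondrial share of 20% or less, which left 538 of 818 control and 1028 of 1233 cocultured barcodes, 2695 of 8842 from small and 5882 of 8646 from large intestinal tissue. In the small intestinal library 5497 barcodes were over the mitochondrial limit. The cells with the highest Scrublet scores were removed as doublets, at 0.8% per 1000 cells (2, 9, 61 and 306). Spots with at least 500 UMIs were kept. Kept organoid libraries held 43279721 and 96956612 UMIs.

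Levels are pooled UMIs as CPM. Shares have exact Clopper-Pearson intervals, ratios the exact interval of 2 Poisson counts, and counts under 3 were set to 3. With 1 library per condition, and sections that are technical duplicates, no test was made. Cells were thinned to 10000 UMIs in organoids and 2000 in tissue classes and spots, and tissue epithelial cells to 10000 UMIs where the members seen per cell were counted. Clustering used counts scaled to 10000, 2000 variable genes, 30 principal components and 15 neighbours, with Leiden clusters at resolution 1 (spots: 0.5) and seed 0, without the members, listed, mitochondrial, ribosomal protein, GFP and sex genes. Clusters were named from 24 marker lists and are called "-like". The scripts, in Python 3.11.15 with numpy 2.4.6, scipy 1.17.1, pandas 2.3.3, scanpy 1.11.5, igraph 0.11.9 and matplotlib 3.10.9, were tested on simulated data.

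The members and lists were chosen with earlier results of these data known. All 9 members are named. Of each list up to 6 genes with the most UMIs could be named, and for likeness the 5 genes with the highest r among genes in at least 5% of control cells. Lgr5 was named besides, after its value was seen, as 1 of the 2 stem cell genes at least 2-fold lower. Leading genes of a cluster were those in at least 25% of its cells with the highest ratio. Alternatives changed the scaling, the filters, the doublets, the thinning, the resolution, the cells of highest count and the sections. Lists without the members or without Areg, and cluster levels without the richest cell, were added after seeing the data.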

Additional observations from a re-analysis of the deposited data

How the results depend on the processing

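All 9 genes stayed at least 2-fold lower in coculture under every alternative run for that count, and 8 of 8 without Clu. The summed log2 ratio of -2.53 was -2.38 under median-of-ratios scaling, -2.62 with a strict and -2.49 with a loose cell filter, -2.50 over all barcodes, -2.63 without the richest cell and -2.80 without the 10 richest cells of each gene, and -2.35 without Clu. It was -2.54 over cells with at least 10000 UMIs. The last 3 settings were added after seeing the data. Median-of-ratios scaling moved the median of all genes from -0.08 to 0.06. The background of genes at least 2-fold lower was 2.53%, and it was 4.20% with a minimum of 20 UMIs, 24.9% with a minimum of 1 UMI and 1.95% under median-of-ratios scaling. Among ratios of single genes over all cells none changed sign, and 24 values moved beyond their counting interval while 66 did not, with Clu at -8.50 as a mean over cells and Sprr2f at -2.53 with the strict filter.

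Shares of cells depend on the depth by construction. At least 2 genes were seen in 23.8% of control cells, 28.7% at 20000 UMIs, 54.1% without thinning and 16.9% when 2 UMIs were asked for. At least 3 were seen in 36.2% without thinning and 13.3% at 2 UMIs. In coculture at least 2 were seen in 6.70% at 5000 UMIs, 26.2% without thinning and 4.13% at 2 UMIs, and at least 3 in 3.08%, 13.3% and 2.72%. The median excess of pairs without thinning was 1.70 in the control and 2.52 in coculture, and 7.02 in coculture at 2 UMIs. Only pairs with a product of at least 1 cell enter these medians, so the pairs differ between settings and the values are not alike. At resolution 0.5 the cluster with the highest level took 19.5% of control and 6.23% of cocultured cells. In small intestine the highest class of the 7 genes with more than 1 UMI was the same under the 3 alternatives run, though not its level, and in large intestine it changed for Anxa1, Sprr1a or Il1rn. Without the richest cell of each library, a setting added after seeing the data, the ratio inside the cluster turned to -0.13 for Sprr1a and -0.45 for Sprr2f, and that outside it to 0.18 for Sprr1a. The cause of these changes was not tested. Leaving out 1 Visium section gave 0 to 1 genes higher in small intestine, the 1 being Clu without small intestinal replicate 1. No paired analysis was possible because the replicate numbers of technical duplicates pair nothing across tissues.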
